A study of Caenorhabditis elegans with 4 samples.

Results

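SMC-4 peaks on chromosome III of Caenorhabditis elegans are described here. They are the rows for III in the peak list deposited for the whole series, 315 of its 1997 rows, or of 1989 on the 6 nuclear chromosomes. Members were chosen by chromosome alone, not by strength or width. Each was then compared with the peaks on III of 2 further lists, one for each immunoprecipitate, which held 187 peaks in replicate 1 (of 1176) and 33 in replicate 2 (of 296).

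Chromatin immunoprecipitation followed by sequencing was carried out on wild-type N2 embryos of mixed stage, from a population of males and hermaphrodites. Worms were kept at 20 °C, and whole embryos were fixed in 2% formaldehyde for 30 minutes. The series holds 2 immunoprecipitates with a polyclonal rabbit antibody to SMC-4 and 2 input samples, and no mutant, other stage or other antibody. Only peak lists of the immunoprecipitates were analysed, so values of the inputs and read depths are unknown here. A peak in whole embryos sums over all cell types and cell cycle states. The labels do not say whether each replicate had its own culture, and the spread between replicates may therefore be technical.

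SMC-4 is an ATPase of the structural maintenance of chromosomes family. With its partner MIX-1 it forms the core of condensin I and condensin II, ring-shaped complexes that compact and organise chromosomes and are needed for their segregation at mitosis. A further worm condensin, which acts in dosage compensation on X, uses DPY-27 where the others use SMC-4. Worm chromosomes are holocentric, so that spindle attachment is spread along their length. Their autosomes have central regions rich in genes of broad expression, and arms with more repeats and more meiotic recombination.

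The peaks on III were mostly short and covered under 1% of the chromosome. The whole-series list had 22.9 peaks per Mb on III (exact Poisson interval 20.4 to 25.5), replicate 1 had 13.6 (11.7 to 15.7) and replicate 2 had 2.39 (1.65 to 3.36). On the other autosomes the whole-series density ran from 13.6 to 21.6 peaks per Mb, and on X it was 27.1. In replicate 1 the other autosomes had 7.12 to 13.2 peaks per Mb, so that III had the highest value of the autosomes in both of these lists. Its interval overlapped that of I in each (19.3 to 24.1 and 11.4 to 15.2). In replicate 2 they had 2.12 to 3.01, and III lay inside that range. These intervals, and those below, are at the 95% level and cover the counting of peaks only.

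Peaks on III covered 95.9 kb in the whole-series list, 0.696% of the span up to the last peak end. They covered 100.03 kb in replicate 1 and 33.2 kb in replicate 2. Replicate 2 thus listed 33 peaks against 187 but about as many wide ones, as given below. The median width was 220 bp in the whole-series list, 370 bp in replicate 1 and 321 bp in replicate 2. Where a whole-series peak met a replicate 1 peak, it was the narrower one in 173 of 183 cases, with medians of 258 and 399 bp. The replicate lists were called with MACS and the whole-series list with MACS v2. Widths, splits and scores of the 2 kinds of list are therefore not compared like with like, here and below.

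Along the chromosome the peaks were spread over the whole span. It was divided by length alone, and no boundaries of arms and central region were used. With the span cut into 3 sections of equal length, 113 of the 315 whole-series peaks lay in the left section, 106 in the central and 96 in the right section. Outside the central section lay 209 peaks, 66.3% (Clopper-Pearson interval 60.8 to 71.6), against 66.7% of all nuclear peaks. The central section held 33.7% of peaks on III and 35.3% on the other 4 autosomes together, and the difference did not pass (Fisher's exact p = 0.642, adjusted p = 0.825 over the 9 comparisons made between III and those autosomes). All 9 count peaks as if each were independent, although neighbours are not, and pooling the autosomes does not measure the spread between chromosomes. Replicate 1 had 67, 58 and 62 peaks in the 3 sections, and replicate 2 had 11, 14 and 8.

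In the 13 full windows of 1 Mb the whole-series count was lowest at 13 (9 to 10 Mb), had a median of 23 and was highest at 33 (4 to 5 Mb). Replicate 1 was also highest in the window from 4 to 5 Mb, with 22 peaks. Its lowest windows, with 8 peaks each, were 6 to 7 Mb and 11 to 12 Mb, where the whole-series list had 14 and 18. The variance of the whole-series counts was 1.61 times their mean on III and 2.44 times in the 67 full windows of the other autosomes. The latter pools chromosomes with 13.6 to 21.6 peaks per Mb, so it also holds differences between chromosomes. The ratios do not show whether peaks were more even along III than along another autosome. Replicate 2 had 1 to 5 peaks in every full window, too few to rank them.

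**Figure D1:**
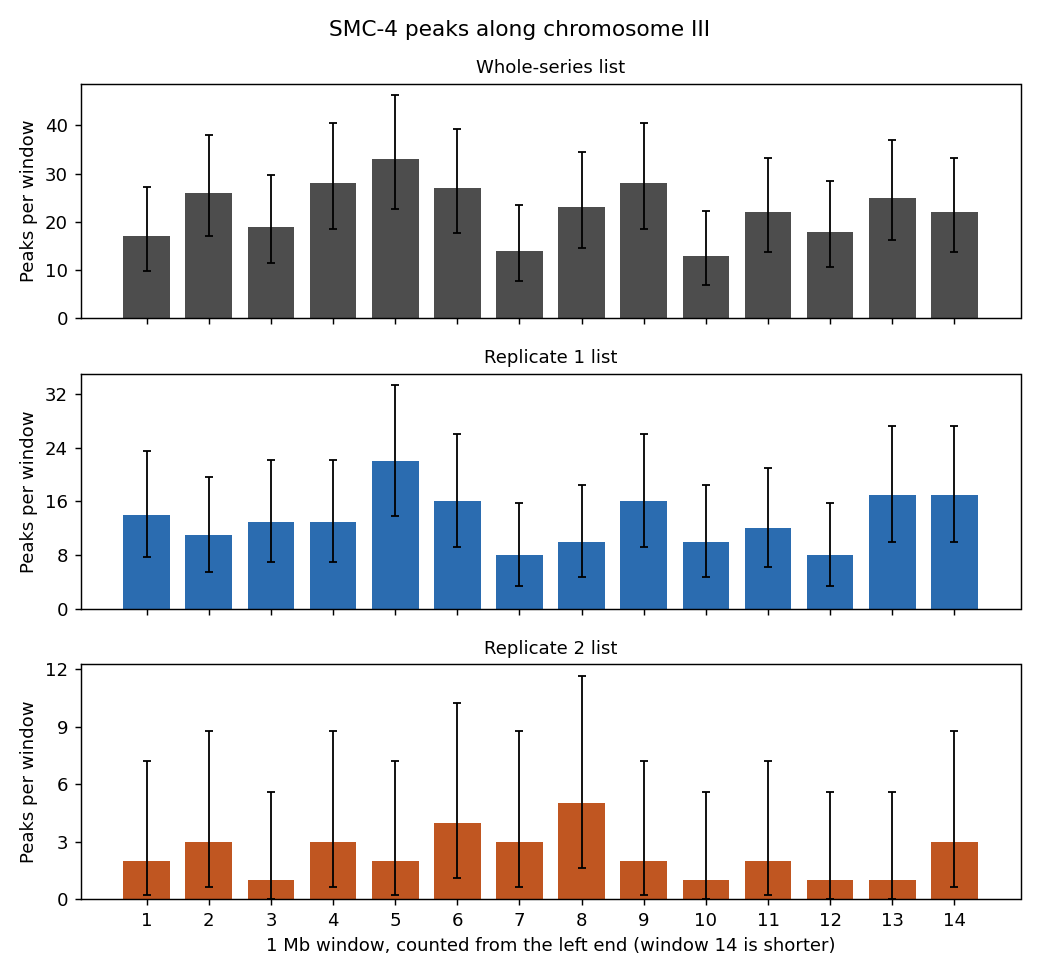
Number of SMC-4 peaks in each 1 Mb window of chromosome III, for the whole-series list, replicate 1 and replicate 2; bars are counts and error bars are exact Poisson intervals at the 95% level. The whole-series counts run from 13 to 33 in full windows, replicate 1 from 8 to 22 and replicate 2 from 1 to 5.

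Among stretches without a whole-series peak, the longest was 400.03 kb, from 6571873 to 6971904, and neither replicate had a peak in it. The next, 304.8 kb from 2966833 to 3271648, was also empty in both replicates. The stretches from 9176217 to 9443426 (267.2 kb), from 5358393 to 5602026 (243.6 kb) and from 11066953 to 11267329 (200.4 kb) held 0, 1 and 0 whole replicate 1 peaks, and the last of these held 1 replicate 2 peak.

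The 2 ends of III differed between the lists. Both replicates listed a peak that starts at the first base, 1 to 234 with a score of 219.07 in replicate 1 and 1 to 210 with a score of 166.39 in replicate 2. The whole-series list had no peak there, and its first peak on III was 25701 to 25846 (score 3.65). At the right end the whole-series list had a peak from 13783374 to 13783731 with a score of 10.3, and neither replicate had one. The last replicate 1 peak was 13717471 to 13717771, and the last replicate 2 peak was 13293008 to 13293270.

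The first question was how many of the peaks on III were seen in the single replicates. A peak was counted as shared when at least 1 bp overlapped. The lowest nuclear score was 50.01 in replicate 1 and 50.43 in replicate 2, so absence from a list does not show absence of signal. Replicate 1 overlapped 183 of the 315 whole-series peaks (58.1%, 52.4 to 63.6), against 57.4% of all nuclear peaks. Replicate 2 overlapped 39 (12.4%, 8.95 to 16.5), against 16.3%. Both overlapped 36 (11.4%, 8.13 to 15.5), against 15.3%, and neither overlapped 129 (41.0%, 35.5 to 46.6), against 41.6%. In none of these 4 shares did III differ from the other autosomes after adjustment (Fisher's exact, adjusted p = 0.725, 0.204, 0.204 and 0.725). For overlap with replicate 2 the difference from those autosomes was -4.29 percentage points, and for both replicates it was -4.32. With sharing defined by midpoints within 500 bp, these 2 shares were 8.89% on III against 14.9%, and 6.67% against 13.3%, and both differences passed (Fisher's exact, adjusted p = 0.0247 and 0.00759). The whole-series list cannot be taken as independent of the replicate lists, so these shares describe how the lists relate.

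Peaks found in both replicates had a higher median score and were more often wide, though the groups overlapped. The score is the value that the authors' caller gave each peak, on a scale that is not stated, so levels are compared within a list. The 36 peaks found in both replicates had a median score of 16.77, with values from 2.26 to 86.55, and 13 of them were at least 500 bp wide. The 147 peaks found in replicate 1 alone had a median of 7.81 (1.51 to 38.47), and 10 were that wide. The 129 peaks found in neither had a median of 4.39 (1.51 to 11.41), and 1 was that wide. Over all nuclear peaks the median scores of these groups were 17.45, 8.08 and 4.55, so the order was not particular to III. Median widths were 385, 240 and 172 bp on III, and 465, 249 and 178 bp over all nuclear peaks. All 3 groups reached down to low scores, while no peak above 11.41 was absent from both replicates. A wide region can count several times in these groups. Of the 36 peaks found in both replicates, 13 were pieces of 3 wide replicate 1 peaks described below. The wide replicate 1 peaks at 1299682 to 1303077 and at 2496706 to 2501831 each held 2 others of the 36. A wider peak also has more bases on which to meet the 1 bp rule.

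**Figure D2:**
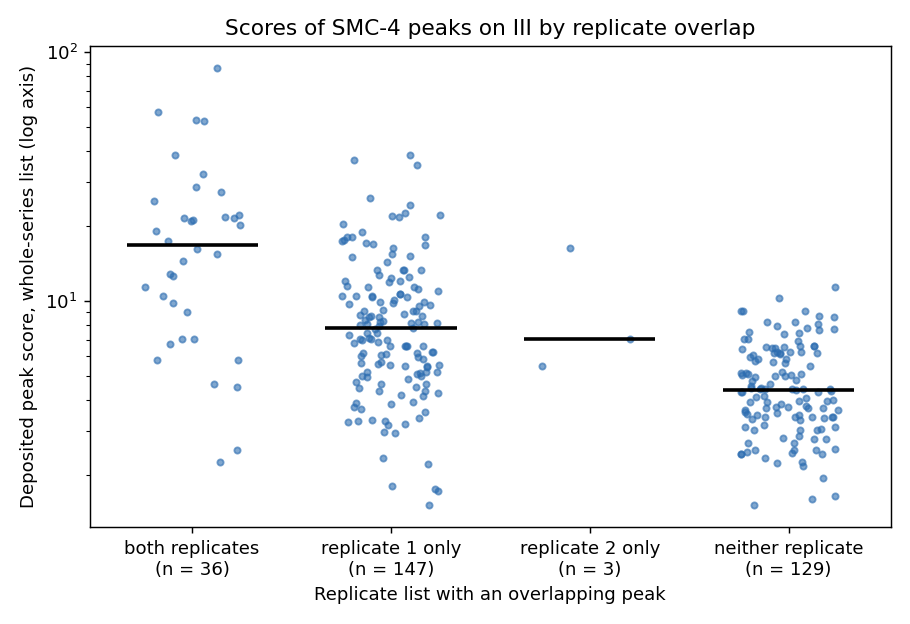
Deposited scores of the 315 whole-series peaks on III (log axis), grouped by the replicate lists that overlap them; each point is 1 peak and the line is the median. Medians are 16.77 for both replicates, 7.81 for replicate 1 alone, 7.03 for the 3 peaks of replicate 2 alone and 4.39 for neither.

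Divided by score into 5 sets of 63, the overlap with replicate 1 went from 28.6% (17.9 to 41.3) in the weakest set to 96.8% (88.998 to 99.6) in the strongest, where 61 of 63 peaks were shared. The intermediate sets had 36.5%, 54.0% and 74.6%. For replicate 2 the weakest set had 3.17% and the strongest 39.7% (27.6 to 52.8), with 25 of 63 peaks. The sets between them had 3.17%, 9.52% and 6.35%, so that replicate 2 was set apart in the strongest set and low in all others. The strongest set began at a score of 11.37.

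**Figure D3:**
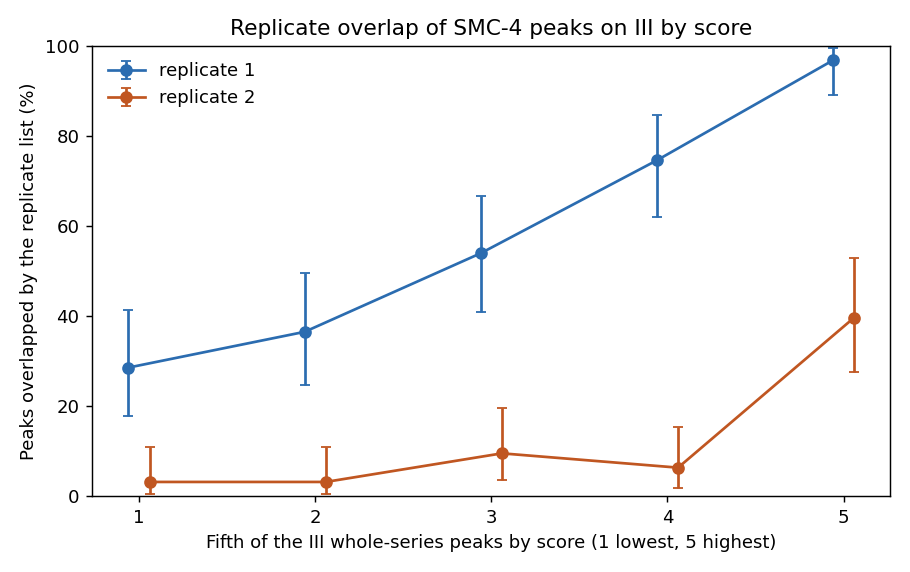
Share of III whole-series peaks overlapped by replicate 1 and by replicate 2, in 5 sets of 63 peaks ordered by score; error bars are Clopper-Pearson intervals at the 95% level. Replicate 1 climbs from 28.6% to 96.8%, and replicate 2 stays under 10% until the strongest set, where it reaches 39.7%.

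The second question was how the replicates matched each other on III. Replicate 1 overlapped 29 of the 33 replicate 2 peaks on III (87.9%, 71.8 to 96.6), against 92.2% over the nuclear chromosomes. Replicate 2 overlapped 26 of the 187 replicate 1 peaks on III, 13.9% (9.29 to 19.7), against 22.6% of all nuclear replicate 1 peaks. On the other 4 autosomes together it overlapped 168 of 691, or 24.3% (21.2 to 27.7). This was the only one of the 9 comparisons that passed (odds ratio 0.503, Fisher's exact p = 0.00202, adjusted p = 0.0181). The call was lost with an overlap of 50% of both peaks (adjusted p = 0.0525), with peaks within 1 kb merged (adjusted p = 0.0899) and in the stronger 50% of replicate 1 peaks (27.5% on III against 40.3%, adjusted p = 0.204, all Fisher's exact). It was not particular to III. On I the share was 14.6% (29 of 199), and III against I alone did not pass (Fisher's exact, adjusted p = 0.996). On II it was 24.7%, on IV 28.4% and on V 32.2%, against each of which III had the lower share. III passed against IV (Fisher's exact, adjusted p = 0.00902) and V (adjusted p = 0.000596) and did not pass against II (adjusted p = 0.0971).

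**Figure D4:**
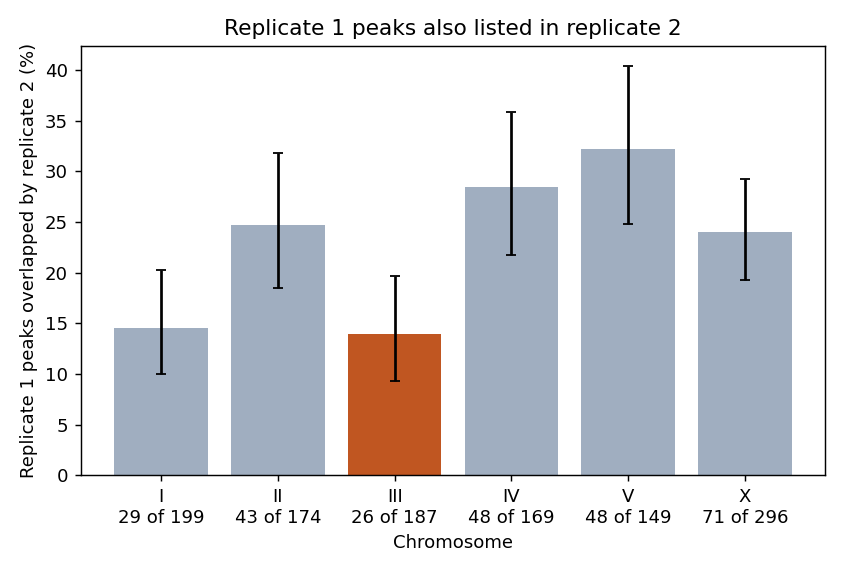
Share of replicate 1 peaks overlapped by a replicate 2 peak on each nuclear chromosome; error bars are Clopper-Pearson intervals at the 95% level and III is coloured. III (13.9%) and I (14.6%) lie below II, IV, V and X, which run from 24.0% to 32.2%.

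Replicate 1 peaks on III had the lowest median score of the autosomes, 86.39. The median was 90.38 on I and 98.92 to 102.91 on II, IV and V. The overlap with replicate 2 was also taken by level of replicate 1 score. With all nuclear replicate 1 peaks divided by score into 5 sets, none of the 30 III peaks in the weakest set overlapped replicate 2, which allows up to 11.6% at the upper Clopper-Pearson bound, and 4 of 147 (2.72%) did on the other autosomes, too few to show a difference. In the next 3 sets the shares on III were 5.45%, 4.76% and 6.67%, against 14.3%, 11.1% and 25.4%. In the strongest set, from a score of 198.62 upwards, 19 of 30 III peaks were shared (63.3%, 43.9 to 80.1) and 71.2% of those on the other autosomes (62.7 to 78.8). III had the lower share in each set. The intervals of III and of the other autosomes overlapped in each, which does not decide whether the shares differ, and no test was made within sets. The 26 shared replicate 1 peaks on III scored 77.23 to 2598.98, with a median of 353.5, and the 161 unshared ones 50.93 to 377.65, with a median of 83.3.

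Ranks of score in the 26 overlapping replicate pairs were related with Spearman's rho of 0.775, as a description across peaks of 1 chromosome that share their libraries. For the 183 whole-series peaks met by replicate 1, rho between the 2 scores was 0.555, and for the 39 met by replicate 2 it was 0.245.

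The 4 replicate 2 peaks without a replicate 1 partner were short and weak. The strongest was 6971947 to 6972172, which scored 82.03 and met a whole-series peak of score 16.37. The others were 3460147 to 3460353 (67.8), 11234680 to 11234841 (53.93) and 6158630 to 6158826 (50.93). The one at 11.2 Mb met no peak of any other list.

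The leading whole-series peak on III, 3867384 to 3867684, was 301 bp wide, scored 86.55 and ranked 13 of all 1989. It scored 535.59 in replicate 1 and 252.03 in replicate 2, and its nearest neighbour lay 10113 bp away. The next was 8043760 to 8044033, 274 bp wide, with a score of 57.5, and with 266.6 and 206.44 in the replicates. Peak 7854454 to 7854735 scored 53.54 (362.07 and 131.84 in the replicates). Peak 10758971 to 10759285 scored 52.78 (481.14 and 182.72). Peak 4475496 to 4475728 scored 38.76 (258.1 and 132.87). All 5 were listed in both replicates, at 233 to 315 bp in the whole-series list, and together they carried 10.5% of the summed score of III.

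The next 3 peaks by score were listed in replicate 1 but not in replicate 2. They were 4899660 to 4900021 (score 38.47, replicate 1 score 377.65), 10461069 to 10461333 (36.88, 359.37) and 12904819 to 12905221 (35.07, 252.66). The first 2 of these replicate 1 scores lay within the range of the 5 leading peaks (258.1 to 535.59), and the last lay below it. Peak 13070376 to 13070869 (32.37) and peak 4378609 to 4379232 (28.67) were again in both lists, with replicate 1 scores of 381.68 and 408.48. Their replicate 2 scores, 57.27 and 51.54, lay near the lowest of that list on III, 50.93.

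Of the 25 highest-scoring peaks on III, 15 were found in both replicates, 10 in replicate 1 only and 0 in neither. They scored 20.33 or more, and the next peak scored 20.26. All sections held some, with 8 in the left, 8 in the central and 9 in the right section. Their starts ran from 931162 to 13643503, and the median step between starts was 358 kb. In width, 6 of the 25 (24%) were at least 500 bp, against 7.62% of all III peaks, and their median was 315 bp against 220 bp. A neighbour lay within 5 kb of 8 of them (32%), against 38.4% of all III peaks. The 10 that replicate 2 lacked had replicate 1 scores of 127.16 to 377.65.

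Among ranks 11 to 19, most peaks were in replicate 1 only. Peaks 5031349 to 5031737 (27.4), 10224575 to 10225438 (25.18) and 8801818 to 8802198 (22.19) were in both replicates. Peaks 13643503 to 13643731 (26), 9765365 to 9765669 (24.41), 2785904 to 2786153 (22.55), 6453683 to 6453912 (22.26), 1618998 to 1619222 (21.97) and 9053851 to 9054084 (21.7) were in replicate 1 only. At ranks 20 to 25 the peaks 13292978 to 13293235 (21.54) and 931162 to 931707 (21.13) were in both replicates and 13296185 to 13296500 (20.33) was in replicate 1 only. The remaining 3 belong to the wide regions described next.

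In its share of high scores III did not differ detectably from the other autosomes. The upper 10% of nuclear scores, from 18.5 upwards, took in 28 III peaks, 8.89% (5.99 to 12.6), against 10% of all nuclear peaks by construction and 8.96% on the other autosomes (Fisher's exact, adjusted p = 1). The median whole-series score was 6.19 on III and 5.52 to 6.57 on the other autosomes. In replicate 1 the median on III was below theirs (86.39 against 90.38 to 102.91). In replicate 2 it was above theirs (125.64 against 77.615 to 123.18). The highest whole-series score of III, 86.55, was above the maxima of the other autosomes, which ran from 29.84 to 58.09.

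A few wide regions took up much of the bases covered on III in the replicate lists. Replicate 1 had 7 peaks of at least 2 kb on III, 3.74% of its peaks there (1.52 to 7.56), against 3.58% of all nuclear replicate 1 peaks. Its next widest peak on III was 1372 bp. Replicate 2 had 6, or 18.2% (6.98 to 35.5), against 11.5%, and its next widest was 1905 bp. The regions of at least 2 kb made up 26.7% of covered bases in replicate 1 and 60.4% in replicate 2. All 7 of replicate 1 were overlapped by replicate 2, and all 6 of replicate 2 lay on one of those 7. These shares of bases and of overlap were not computed for other chromosomes, so they are not shown to be particular to III. The 7 scored 330.99 or more, within the strongest of the 5 score sets, where 71.2% of replicate 1 peaks on the other autosomes were shared. Their width also makes the 1 bp rule easier to meet.

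The strongest wide region was 7444336 to 7448198 in replicate 1, 3863 bp with a score of 2598.98, the highest on III and rank 6 of all nuclear replicate 1 peaks. Replicate 2 divided it into 2 peaks, 7444279 to 7446601 (1042.74) and 7446629 to 7448195 (512.43). The whole-series list had a single peak of 3760 bp there, which scored 20.97 and ranked 24 on III. The second strongest was 1299682 to 1303077 with 1342.65 in replicate 1. Replicate 2 had 1204.67, its highest value on III, at 1300146 to 1303143 and a further peak of 207 from 1299659 to 1300104. The whole-series list divided it into 2 peaks of 21.51 and 21.68, 250 bp apart. Both regions thus headed the replicate lists of III while their whole-series peaks ranked 20 to 24 there.

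The widest region of replicate 1 was 5353026 to 5358548, 5523 bp with a score of 571.48. Replicate 2 listed it as 2 peaks with scores of 59.11 and 188.21, and the whole-series list as 6 peaks with scores of 7.05 to 19.03. Region 2496706 to 2501831 (5126 bp) scored 466.83 in replicate 1 and 385.33 in replicate 2, with 2 whole-series peaks. Region 1017299 to 1020678 (3380 bp) scored 330.99 and 175.74 and held 4 whole-series peaks. Region 3334320 to 3337079 (2760 bp) scored 596.98 and 453.24 and held 1. Region 7594593 to 7597255 (2663 bp) scored 374.97, met a replicate 2 peak of 1868 bp with 125.64, and held 4.

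All 7 wide regions started between 7.38% and 55.1% of the span, and none lay in the right section, where replicate 1 nevertheless had 62 shorter peaks. Replicate 2 overlapped 14 of 113 whole-series peaks in the left section (12.4%, 6.94 to 19.9), 19 of 106 in the central (17.9%, 11.2 to 26.6) and 6 of 96 in the right section (6.25%, 2.33 to 13.1). A wide region can count several times here. Of replicate 1 peaks it overlapped 13.4%, 17.2% and 11.3% from left to right, with intervals that overlapped. Overlap of whole-series peaks with replicate 1 was 55.8%, 60.4% and 58.3% from left to right, with intervals that overlapped. Whether the 7 regions are repeats or expressed genes was not tested, since no annotation of the build named in the files was used.

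**Figure D5:**
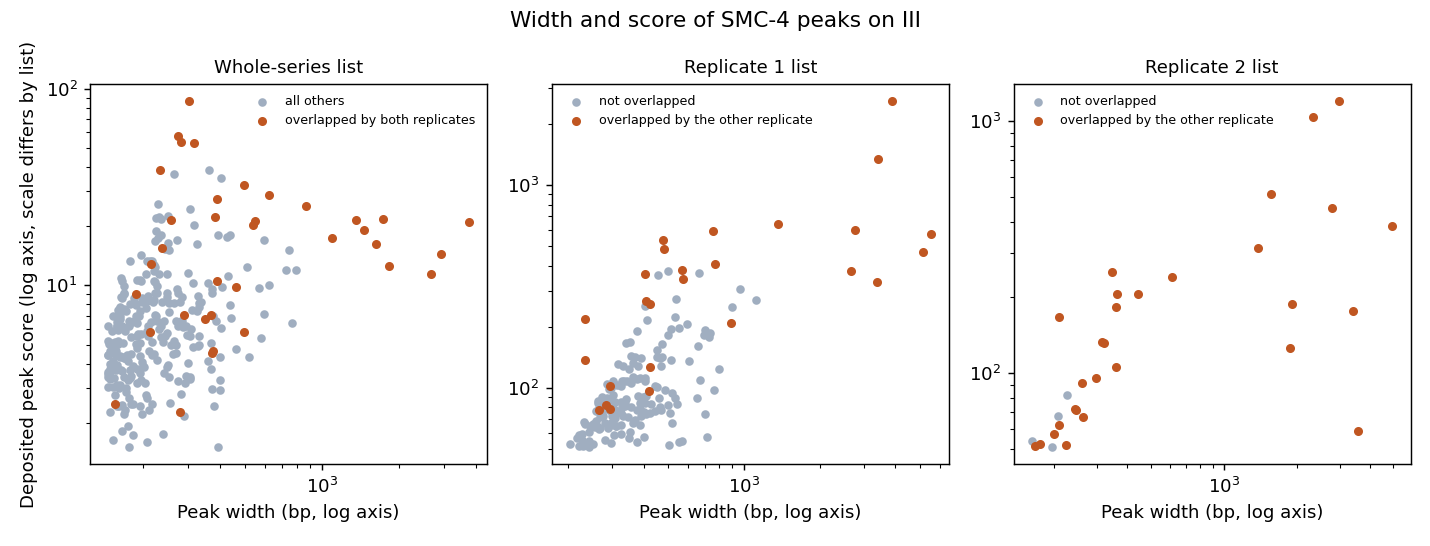
Width against deposited score of every peak on III in the whole-series list (315), replicate 1 (187) and replicate 2 (33), both axes logarithmic, coloured where the peak is shared between replicates. In the replicate lists the 7 and 6 peaks of at least 2 kb lie farthest to the right, and in the whole-series list the highest scores belong to narrow peaks.

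Score and width were more closely tied in the replicate lists, with Spearman's rho of 0.626 over 187 peaks in replicate 1 and 0.777 over 33 in replicate 2, than in the whole-series list (0.446 over 315), as a description across peaks. In the whole-series list 24 peaks of III were at least 500 bp wide, 7.62% (4.94 to 11.1), against 9.8% of all nuclear peaks and 10.4% on the other autosomes. This difference did not pass (Fisher's exact, adjusted p = 0.373).

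In spacing, III did not differ detectably from the other autosomes. A neighbour lay within 5 kb of 121 whole-series peaks, 38.4% (33.01 to 44.03), against 37.7% of all nuclear peaks and 37.8% on the other autosomes (Fisher's exact, adjusted p = 0.951). A higher density raises this share by itself. The median distance to the nearest peak was 9288 bp, with quartiles of 1692 and 24424.5 bp, and 64 peaks had a neighbour within 1 kb. In replicate 1 the share within 5 kb was 25.7% on III and 29.7% on the other autosomes. In replicate 2 it was 18.2% against 31.0%. The 6 replicate 2 peaks on III with such a neighbour all had it within 1 kb. They were adjacent pieces of wide replicate 1 peaks described above, so they do not show spacing of separate regions.

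Runs of at least 3 whole-series peaks with gaps of at most 5 kb were taken as clusters. III had 12, with 51 peaks or 16.2% of its members, against 18.3% of all nuclear peaks. This was 0.871 clusters per Mb, and the other autosomes had 0.621 to 1.13. The III clusters were 2131 to 12284 bp long. Their members scored like the other peaks of III, with medians of 6.18 and 6.19. Replicate 1 overlapped 78.4% of cluster members and 54.2% of the others, and replicate 2 overlapped 31.4% and 8.71%.

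The clusters were of 2 kinds. In 3 of them every member lay within a single replicate 1 peak. These were the wide regions at 5353238 to 5358392 (6 members), 1017508 to 1020468 (4) and 7594615 to 7597031 (4), where replicate 2 overlapped 13 of the 14 members. The other 9 clusters were runs of separate peaks, and replicate 2 overlapped 3 of their 37 members.

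Among these runs, the one with most members was 12608141 to 12617205, with 6 peaks over 9065 bp and scores of 1.75 to 15.11. Replicate 1 had 5 peaks there, up to a score of 206.98, and replicate 2 had 0. The cluster from 13061158 to 13070869 had 5 members with scores of 3.21 to 32.37, 4 of them in replicate 1 and 1 in replicate 2. The cluster from 8794768 to 8802198 also had 5, with scores of 3.69 to 22.19, 4 in replicate 1 and 1 in replicate 2. Clusters of 4 were 3448043 to 3460326 (12284 bp, the longest, with 2 members in replicate 1 and 1 in replicate 2), 1921012 to 1925531 and 13712875 to 13721124. The last 2 had 3 members each in replicate 1 and 0 in replicate 2. They lay at 13.95% and 99.5% of the span.

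Some peaks were in one kind of list only. The strongest whole-series peak that neither replicate overlapped was 2966584 to 2966832 (score 11.41, rank 60 on III). It was followed by the peak at the right end and by 1080615 to 1080783 (9.12), 11345603 to 11345828 (9.12) and 4150924 to 4151092 (9.09). Conversely, 19 replicate 1 peaks on III (10.2%, 6.23 to 15.4) and 3 replicate 2 peaks (9.09%, 1.92 to 24.3) met no whole-series peak. Of all nuclear peaks, 88.9% in replicate 1 and 91.9% in replicate 2 did meet one.

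Besides the left end of III, a second place was listed in both replicates and not in the whole-series list. It was 12143730 to 12143964 in replicate 1 (137.26) and 12143752 to 12144012 in replicate 2 (91.38). The next replicate 1 peaks without a whole-series partner were 13032368 to 13032887 (94), 8897799 to 8898072 (89.98) and 13032051 to 13032324 (80.69), and none of these 3 was in replicate 2.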

How the data were processed

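Per the submitters' processing notes, BWA was the aligner and ce10 the build. Peaks were called with MACS in the replicate lists and MACS v2 in the whole-series list on build WormBase WS220, per the file headers and source columns. The only value per peak is a deposited score on a scale that is not stated. For the whole-series list, the control, the cutoffs and the use of replicates are not stated. The last whole-series peak of III ends at 13783731, which may lie past the chromosome end, and this was taken as the span. Positions are 1-based. No WS220 sequence or annotation was used, so no gene was assigned. The lists hold no read counts, so depth is unknown and precision rests on the number of peaks.

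Overlaps, spacing and clusters were computed with scipy 1.17.1, pandas 2.3.3 and numpy 2.4.6 under Python 3.11.15, after the functions were tested on simulated intervals, and drawn with matplotlib 3.10.9. Peaks on mitochondrial DNA were set aside. III was compared with the other 4 autosomes by two-sided Fisher's exact tests, adjusted by Benjamini-Hochberg over 9 tests with a threshold of 0.05. For an alternative setting, its p replaced that of the same test among the 9. Regions were named by rank, width, cluster size and position, at most 25 by score. Members, lists, tests and rules were chosen with earlier results of these data known.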

Additional observations from a re-analysis of the deposited data

How the results depend on the processing

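The 9 comparisons of III with other autosomes and the count of clusters were recomputed in 63 settings, of which 39 left direction and call as they were (cluster counts within 1.5 times). The lower overlap of III replicate 1 peaks with replicate 2 kept its direction in all 10 of its settings. It no longer passed with an overlap of 50% of both peaks (11.8%, adjusted Fisher's exact p = 0.0525), in the stronger 50% of the list (27.5%, adjusted p = 0.204) and with peaks within 1 kb merged (14.5%, adjusted p = 0.0899), nor against I or II alone (13.9%, adjusted p = 0.996 and 0.0971). The comparisons with single autosomes and one without peaks of at least 2 kb (10.6% against 22.2%) were chosen after seeing the data. Midpoints within 500 bp made overlap with replicate 2 (8.89%) and with both replicates (6.67%) pass.

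Differences that did not pass changed sign in 13 settings. Values are given for III against the comparison chromosomes. In the stronger 50% of the list these were overlap with replicate 1 (80% against 81.3%) and with neither (18.7% against 17.9%). The share with a neighbour within 5 kb also changed sign there (26% against 29.5%). With peaks within 1 kb merged they were the neighbour share (23.02% against 23.8%) and the upper scores (9.71% against 8.56%). Against all 5 other chromosomes it was the central share (33.7% against 33.2%). The share in the central 50% (54.3% against 52.3%) was a further case. The neighbour share within 2 kb (27.3% against 28.0%) and the upper 5% of scores (4.44% against 4.27%) also changed sign. Without replicate 2, overlap with the remaining replicate changed sign (58.1% against 55.9%). Without replicate 1 it kept its sign (12.4% against 16.7%). With single replicate lists the neighbour share changed sign in both (25.7% against 29.7% in replicate 1, 18.2% against 31.0% in replicate 2). The central share changed sign in replicate 2 (42.4% against 37.5%) and kept it in replicate 1 (31.02% against 35.3%). Clusters numbered 7 with gaps of 2 kb, 17 with 10 kb, 4 in the stronger 50%, and 0 to 6 in the replicate lists. The cause was not tested. No paired analysis was possible because the input samples, which share replicate numbers with the immunoprecipitates, entered no comparison. The depth behind the lists is unknown, which limits every count.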
